A study of Homo sapiens with 4 samples.

Results

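HMGB3, SNX2, SS18L2, NPM3, PRUNE1, PRXL2B and FAM168B were 7 of the 7640 genes in the table, and all were among the genes most reduced after EZH2 shRNA in both colorectal cancer lines. They were chosen by their FPKM values in these same libraries, which were lower with EZH2 shRNA than with control shRNA in each line, so the size of that reduction is given as a description and no test was made of it. RNA was sequenced from the human colorectal cancer lines HCT116 and RKO, each infected with lentivirus carrying either a control shRNA or an shRNA against EZH2. The groups were HCT116 with control shRNA, HCT116 with EZH2 shRNA, RKO with control shRNA and RKO with EZH2 shRNA, with 1 library in each, and all were stable lines obtained with puromycin according to the methods of the study. The identity of the EZH2 hairpin in each line is not given by the labels, and its sequence was not analysed here. With 1 EZH2 shRNA library per line, a change through EZH2 and an off-target change by the hairpin cannot be told apart.

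EZH2 is the methyltransferase of Polycomb repressive complex 2 (PRC2), which places the repressive mark H3K27me3. Genes that PRC2 holds silent tend to rise when it is lost. The 7 genes have different known roles. HMGB3 and NPM3 are chromatin and nucleolar proteins, SS18L2 is a small relative of the BAF subunit SS18, SNX2 shapes endosomal tubules, PRUNE1 and PRXL2B are enzymes, and FAM168B is a membrane protein described in neurons.

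The libraries held 7898152 to 8185776 expected counts in the genes of the table. Levels are in FPKM, which divides the fragments of a gene by its transcript length and the sequencing depth, and the 6139 genes with a mean of at least 1 FPKM were called measured. EZH2 itself was at 31.49 FPKM in the HCT116 control and 12.61 in the HCT116 EZH2 shRNA library, and at 33.61 and 6.61 FPKM in RKO. Of the colorectal epithelial markers, EPCAM was at 176.54 and 156.36 FPKM in HCT116 but at 0.00 and 0.06 in RKO, whereas CDX2 was present in both lines (10.66 and 8.95 FPKM in HCT116, 6.91 and 9.24 in RKO). The 11 listed epithelial markers summed to between 2764.3 and 2897.2 FPKM in HCT116 and between 169.7 and 206.7 in RKO, where ELF3 was at 0 in both libraries. KRT18 alone was at 154.04 and 187.91 FPKM in RKO and made up most of the RKO sums. Of the mesenchymal markers 2 of 8 were listed, summing to at most 10.4 FPKM, and none of the 6 blood cell markers was listed. In bulk samples fewer cells expressing a gene and less RNA per cell cannot be told apart.

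The promoter windows of the 7 genes were searched for motifs, and only some are printed below, picked to show the motifs marked. Printed are the first window of HMGB3, PRXL2B and FAM168B and the only one of SNX2. Whether the promoters have a part in the reduction was not tested. RefSeq (GRCh38.p14) gave 11 windows for the 7 genes, each from 250 bases before to 50 after a transcription start, and a search on both strands covered 11 motifs. The build the reads were mapped to was not settled, so the windows were matched by gene ID and not by position. In the sequences below, capitals mark CCAAT boxes in the HMGB3 window (chrX:150983085-150983384, plus strand), GGGCGG in the SNX2 window (chr5:122774746-122775045, plus strand), CCAAT and TTTGGCGC, an E2F-like word, in the first PRXL2B window (chr1:2586273-2586572, plus strand), and the E-box CACGTG and the ETS-like word CGGAAGTG in the first FAM168B window (chr2:131093411-131093710, minus strand).
HMGB3: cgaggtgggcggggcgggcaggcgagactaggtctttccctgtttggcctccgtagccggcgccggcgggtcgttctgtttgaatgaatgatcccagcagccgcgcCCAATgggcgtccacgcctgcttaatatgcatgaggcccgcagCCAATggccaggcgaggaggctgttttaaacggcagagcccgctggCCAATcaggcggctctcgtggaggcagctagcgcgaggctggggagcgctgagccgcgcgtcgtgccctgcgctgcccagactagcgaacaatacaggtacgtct
SNX2: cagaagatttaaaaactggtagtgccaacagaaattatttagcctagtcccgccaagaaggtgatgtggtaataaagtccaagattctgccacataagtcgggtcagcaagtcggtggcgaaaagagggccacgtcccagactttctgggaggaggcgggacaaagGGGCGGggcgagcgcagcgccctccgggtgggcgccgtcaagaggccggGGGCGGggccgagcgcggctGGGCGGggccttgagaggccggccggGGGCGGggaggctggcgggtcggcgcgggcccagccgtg
PRXL2B: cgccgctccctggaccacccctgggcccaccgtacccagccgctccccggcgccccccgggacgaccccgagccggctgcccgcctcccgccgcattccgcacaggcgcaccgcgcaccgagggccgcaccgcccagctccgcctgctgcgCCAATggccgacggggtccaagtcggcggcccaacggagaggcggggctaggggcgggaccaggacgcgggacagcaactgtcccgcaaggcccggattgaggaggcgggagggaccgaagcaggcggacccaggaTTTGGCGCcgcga
FAM168B: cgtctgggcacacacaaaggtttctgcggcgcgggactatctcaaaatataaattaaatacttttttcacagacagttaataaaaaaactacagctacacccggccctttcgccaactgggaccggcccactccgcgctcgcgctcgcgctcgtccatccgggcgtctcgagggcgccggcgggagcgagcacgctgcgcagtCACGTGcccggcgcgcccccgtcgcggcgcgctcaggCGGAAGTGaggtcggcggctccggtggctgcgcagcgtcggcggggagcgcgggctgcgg

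The GC box word GGGCGG was the motif that the promoters shared most widely. It was present in 10 of the 11 windows, against 45.0% of all 35116 windows in the table, and each of the 7 genes had it in at least 1 window. The share of all genes with it in at least 1 window was not computed. Nor was the share among windows of like CpG content, so nothing is read from these counts. All 11 windows had more CpG dinucleotides (17 to 56) than the median of all windows (14), with NPM3 the lowest. Their GC content was 55.3% to 86.3%, and the NPM3 window at 55.3% lay below the median of 58.7%. CCAAT was found in 3 of the 11 windows, 1 each of HMGB3, SS18L2 and PRXL2B, against 34.6% of all windows, and HMGB3 had 3 copies within its first window. TTTGGCGC occurs in 0.652% of all windows and was found in PRXL2B only, in a stretch that its overlapping windows share. CACGTG (7.26% of all windows) and CGGAAGTG (4.0%) were found in FAM168B only, and CGGAAGTG can overlap CCGGAAG (10.3%), which was in the second FAM168B window. TTTCCCGC (1.63%), TTTGCCGC (0.607%), TGACGTCA (1.85%), the NRF1 motif (1.24%) and the YY1 motif (0.849%) were not found in any of the 11 windows. The genes lie on chromosomes X, 5, 3, 10, 1 and 2, with PRUNE1 and PRXL2B both on chromosome 1. A motif match is a description of letters and not a bound site.

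Among the nuclear proteins, HMGB3 was the gene with the second most reduced level of the 7 when genes were ordered by the smaller of their changes in the 2 lines. HMGB3 (gene ID 3149) is an X-linked high mobility group protein that bends DNA through its HMG boxes and is known from embryonic and blood stem cells. Its level was 50.93 FPKM in the HCT116 control and 28.14 in the HCT116 EZH2 shRNA library, and 26.70 and 13.05 FPKM in RKO. Within each line the control was the higher library, but the RKO control lay below the HCT116 EZH2 shRNA library. The change, EZH2 shRNA minus control on the log2(FPKM + 1) scale, was -0.83 in HCT116 and -0.98 in RKO. Expected counts scaled to equal depth had a ratio, EZH2 shRNA over control, of 0.554 in HCT116 (exact binomial 95% interval 0.522 to 0.587) and 0.489 in RKO (0.451 to 0.53). These intervals cover counting error only, here and below.

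NPM3 (gene ID 10360), a member of the nucleoplasmin family of histone chaperones that binds nucleophosmin in the nucleolus, had the highest level of the 7. It was at 109.97 and 66.45 FPKM in the HCT116 control and EZH2 shRNA libraries, and at 106.42 and 55.45 FPKM in RKO. The 2 control libraries were close to each other and both lay above both EZH2 shRNA libraries. On the log2 scale NPM3 differed from its control by -0.72 in HCT116 and by -0.93 in RKO. The count ratio was 0.604 (0.557 to 0.655) in HCT116 and 0.521 (0.48 to 0.565) in RKO.

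SS18L2 (gene ID 51188) encodes a short protein that resembles the amino end of SS18, a subunit of the BAF chromatin remodelling complex. Its level was 19.09 and 10.80 FPKM in HCT116 and 15.14 and 5.54 FPKM in RKO, so both controls lay above both EZH2 shRNA libraries. SS18L2 differed from its control by -0.77 in HCT116 and -1.30 in RKO on the log2 scale. SS18L2 had the fewest reads of the 7, between 106.11 and 335.05 expected counts per library, and accordingly the widest intervals: the count ratio was 0.592 (0.494 to 0.709) in HCT116 and 0.397 (0.313 to 0.498) in RKO.

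**Figure D1:**
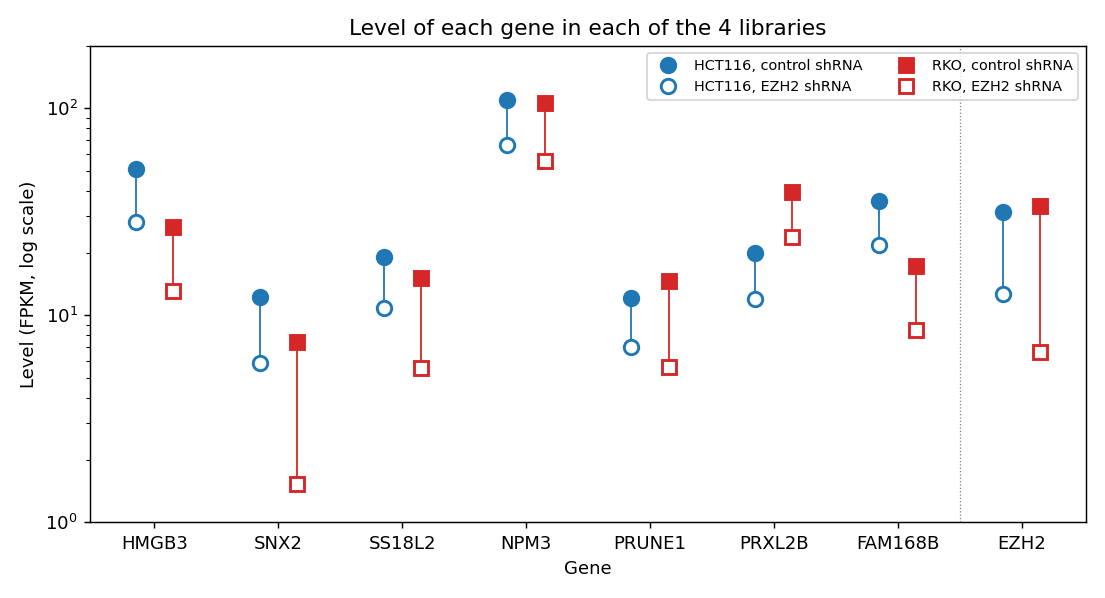
Level of each gene in FPKM (log axis) in the 4 libraries, with filled symbols for control shRNA, open symbols for EZH2 shRNA, circles for HCT116 and squares for RKO. Every open symbol lies below the filled symbol of its line, NPM3 is the highest gene (55.45 to 109.97 FPKM) and SNX2 in RKO reaches the lowest level (1.53 FPKM), with EZH2 shown at the right for comparison.

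The endosomal gene SNX2 had the largest reduction of the 7 in both lines. SNX2 (gene ID 6643) is a sorting nexin with a membrane-binding PX domain and a curvature-sensing BAR domain, and with SNX1 it drives the tubules through which retromer returns cargo from endosomes. Its level was 12.23 and 5.91 FPKM in the HCT116 control and EZH2 shRNA libraries and 7.44 and 1.53 FPKM in RKO. Both controls were above both EZH2 shRNA libraries. The log2 change was -0.94 in HCT116 and -1.74 in RKO, or -0.98 and -2.15 after a trend of the change on transcript GC content was subtracted. The count ratio was 0.483 (0.44 to 0.531) in HCT116 and 0.205 (0.175 to 0.24) in RKO, and in RKO 189.21 expected counts were left of 932.34. These count ratios were close to those of EZH2 itself, 0.449 (0.409 to 0.492) in HCT116 and 0.227 (0.202 to 0.253) in RKO. In FPKM the likeness was weaker in HCT116. SNX2 kept 48.3% of its control level there and EZH2 40.0%, against 20.6% and 19.7% in RKO.

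PRUNE1 (gene ID 58497) is a phosphoesterase of the DHH family that cleaves short-chain polyphosphate and binds the nucleoside diphosphate kinase NME1. Its level was 12.14 and 7.03 FPKM in HCT116 and 14.63 and 5.61 FPKM in RKO, with both controls above both EZH2 shRNA libraries. The log2 change was -0.71 in HCT116 and -1.24 in RKO, and the count ratio was 0.583 (0.509 to 0.665) and 0.381 (0.333 to 0.435).

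PRXL2B (gene ID 127281), a peroxiredoxin-like enzyme that makes prostaglandin F2α from prostaglandin H2, had a reduction of nearly equal size in both lines. Its level was 19.92 and 11.94 FPKM in HCT116 and 39.51 and 23.98 FPKM in RKO. RKO was the higher line in both conditions, and its EZH2 shRNA library lay above the HCT116 control. The log2 change was -0.69 in HCT116 and -0.70 in RKO, with count ratios of 0.598 (0.537 to 0.665) and 0.607 (0.565 to 0.652).

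FAM168B (gene ID 130074), also called MANI, is a small membrane protein known in neurons as an inhibitor of neurite outgrowth. Its level was 35.75 and 21.87 FPKM in HCT116 and 17.28 and 8.46 FPKM in RKO, so the RKO control was below the HCT116 EZH2 shRNA library. Its log2 change was -0.68 in HCT116 and -0.95 in RKO, and the count ratio was 0.607 (0.574 to 0.642) in HCT116 and 0.502 (0.463 to 0.544) in RKO.

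**Figure D2:**
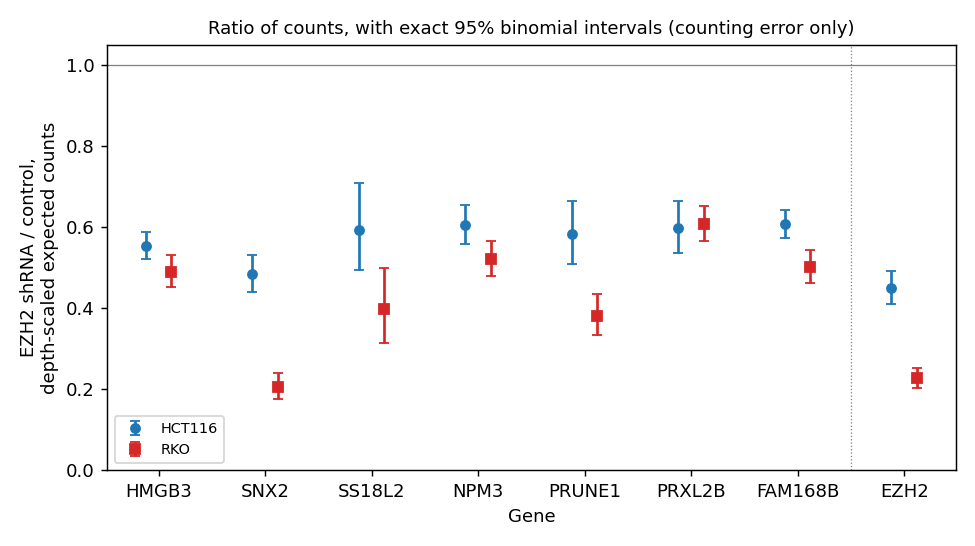
Ratio of depth-scaled expected counts, EZH2 shRNA over control, for each gene in HCT116 (circles) and RKO (squares), on a linear axis from 0, with exact binomial 95% intervals that cover counting error only. All ratios lie below 1, the RKO ratio is lower for 6 of the 7 genes, and SNX2 lies close to EZH2 in both lines (0.483 against 0.449, and 0.205 against 0.227).

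The log2 change was more negative in RKO than in HCT116 for all 7 genes, by under 0.01 for PRXL2B and by 0.80 for SNX2, and the EZH2 level after EZH2 shRNA was also lower in RKO (6.61 FPKM) than in HCT116 (12.61 FPKM). The part of the EZH2 level in this was not tested. Of all measured genes, 47.0% had the larger fall or the smaller rise in RKO. The count ratio was lower in RKO for 6 of the 7, PRXL2B being the exception. For 3 genes, SNX2, PRUNE1 and FAM168B, the counting interval in RKO lay wholly below that in HCT116, as it did for 676 of the 6139 measured genes (11%). Since these counts come from the contrast that chose the genes, nothing is read from them. Whether the lines differed in this was not tested, since each line gave 1 library per condition. The median change of the 7 was -0.72 in HCT116 and -0.98 in RKO, against 0.01 in each line over all measured genes. All 7 were over 1.2-fold lower in both lines, as the choice of genes required, and 2.66% of measured genes were (9.66% in HCT116 and 10.9% in RKO). Among the 163 measured genes over 1.2-fold lower in both lines, 63.8% had the larger change in RKO. Both control libraries were above both EZH2 shRNA libraries in 4 of the 7 genes (SNX2, SS18L2, NPM3 and PRUNE1) and in 4.95% of measured genes, a share that the choice of genes also sets.

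**Figure D3:**
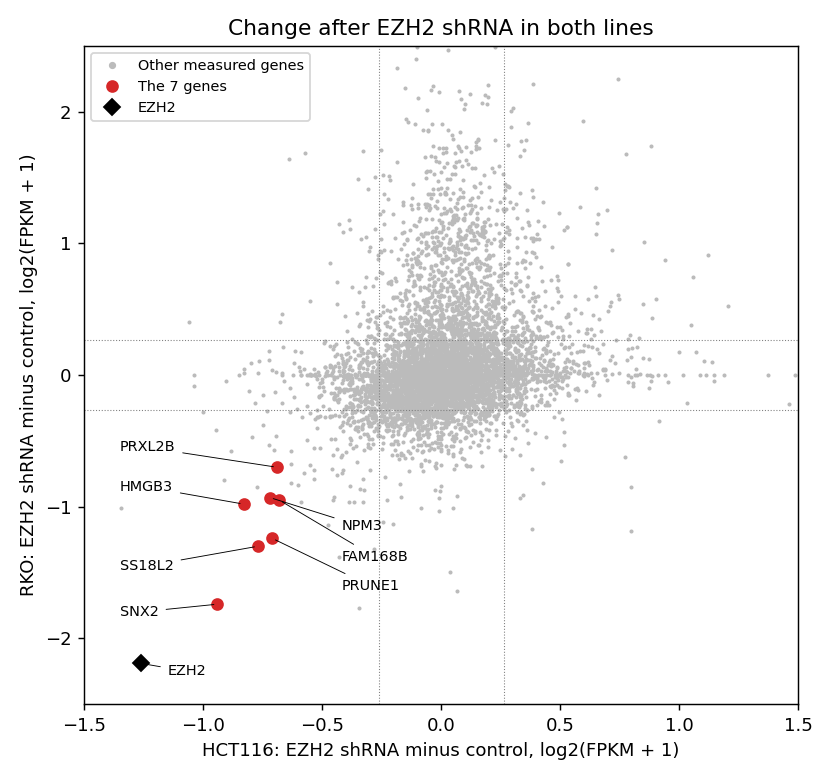
Change after EZH2 shRNA in HCT116 (horizontal axis) and RKO (vertical axis) as a difference of log2(FPKM + 1), for measured genes in grey, the 7 genes in red and EZH2 as a black diamond, with dotted lines at 1.2-fold and 21 genes outside the axes. The 7 genes lie at the lower left, between -0.68 and -0.94 in HCT116 and between -0.70 and -1.74 in RKO.

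The genes next to the 7 in the same order were as follows. By the smaller of the changes, the 7 held ranks 3, 4 and 7 to 11 of 6139, and EZH2 was first. The other genes above FAM168B were TGIF2-RAB5IF (rank 2) and NME1-NME2 (rank 5), both readthrough genes, and NPIPA8 (rank 6), a member of a near-identical family, and all 3 are uncertain because reads can be split between such genes. FAM168B was the last of the 7 at -0.68. Just beyond it came FAM173B, a mitochondrial lysine methyltransferase, with changes of -0.63 in HCT116 and -0.82 in RKO, FHOD1, an actin-assembling formin, with -0.63 and -0.68, NACC2, a transcriptional repressor, with -0.60 and -0.83, and AGFG1, an endocytic adaptor, with -0.59 and -0.96.

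Of the paralogs of the 7 genes, HMGB2 in RKO was the only listed one over 1.2-fold lower in either line. This holds for the FPKM values as deposited. Changes in RKO shift with the scaling, as given below, and the paralogs were not recomputed under other scalings. Of 15 paralogs, 7 were in the table. HMGB1, the most abundant HMG box protein, was at 467.49 and 474.83 FPKM in HCT116 and 290.60 and 291.54 FPKM in RKO. HMGB2, a cell cycle-linked HMG box protein, was at 237.60 and 207.33 FPKM in HCT116 and 186.74 and 125.55 FPKM in RKO, log2 changes of -0.20 and -0.57. SNX1, the partner of SNX2, was at 33.85 and 42.88 FPKM in HCT116 and 40.06 and 47.08 FPKM in RKO, log2 changes of 0.33 and 0.23. Both SNX1 values were thus above control where SNX2 was below it, but the SNX1 change in RKO did not pass 1.2-fold.

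The other paralogs were not lower past 1.2-fold in either line in the FPKM as deposited. NPM2, the oocyte nucleoplasmin, was at 3.83 and 4.62 FPKM in HCT116 and 12.94 in both RKO libraries. PRXL2A had log2 changes of 0.06 and -0.06, and PRXL2C of -0.03 and -0.20. PRUNE2 was at 0.34 and 0.39 FPKM in HCT116, and RKO had 0 in each condition. HMGB4, SNX5, SNX6, SNX32, SS18, SS18L1, NPM1 and FAM168A were not analysed here.

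In the pathways around the genes, TOX2 was the only measured gene lower past 1.2-fold in both lines in the FPKM as deposited. The list medians lay between -0.17 and 0.25, against 0.01 in each line over all measured genes. A gene was counted past 1.2-fold, which 9.66% of measured genes passed downward and 12.7% upward in HCT116, and 10.9% and 22.7% in RKO. The RKO background turned with the scaling, from 671 lower and 1394 higher genes to 1537 lower and 1062 higher under median-of-ratios scaling, so the direction of the RKO counts below is not read. The lists were not recounted under that scaling, so statements on genes past 1.2-fold in both lines hold for the FPKM as deposited only. Of 19 measured HMG proteins and linker histones other than HMGB3, HCT116 had 1 lower and 1 higher and RKO had 4 lower and 6 higher, with median changes of 0.02 and 0.00. In both lines TOX2, an HMG box transcription factor, was the lower one (18.90 and 10.84 FPKM in HCT116, 8.52 and 6.32 in RKO), and HIST1H1C, a linker histone, was the higher one with changes of 0.31 and 0.28, uncertain because histone genes have near-identical copies.

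Of 20 measured sorting nexin, retromer and endosomal sorting genes other than SNX2, HCT116 had 0 lower and 4 higher and RKO had 1 lower and 6 higher, with medians of 0.07 and 0.05. The retromer core subunit VPS29 was at 53.42 and 53.45 FPKM in HCT116 and 57.53 and 60.79 FPKM in RKO. None of the 20 was past 1.2-fold in the same direction in both lines. Of 5 measured BAF complex genes, HCT116 had 0 lower and 2 higher and RKO had 1 lower and 1 higher, with medians of 0.06 and -0.10.

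Of 14 measured histone chaperone and ribosome synthesis genes around NPM3, HCT116 had 1 lower and 0 higher and RKO had 3 lower and 2 higher. The medians were -0.04 and -0.17. The lower ones were BOP1, a ribosome assembly factor, in HCT116 (77.47 to 61.16 FPKM) and the chromatin assembly subunits CHAF1A (35.12 to 27.15 FPKM) and CHAF1B (22.04 to 15.51 FPKM) and the histone chaperone NASP (43.82 to 35.47 FPKM) in RKO. None was past 1.2-fold in the same direction in both lines.

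Of 10 measured genes of the PRUNE1 family, polyphosphate and NME kinases, HCT116 had 0 lower and 1 higher and RKO had 0 lower and 5 higher, with medians of 0.15 and 0.25. NME1, the partner of PRUNE1, was at 399.39 and 391.81 FPKM in HCT116 and 335.38 and 325.79 FPKM in RKO. Of 15 measured peroxiredoxin, thioredoxin and prostaglandin genes around PRXL2B, HCT116 had 3 lower and 0 higher and none passed 1.2-fold in RKO, with medians of -0.05 and -0.02. The 3 were PLA2G4A, which releases arachidonic acid (5.53 to 3.11 FPKM), PTGES, a prostaglandin E synthase (15.37 to 11.61 FPKM), and PRDX3, the mitochondrial peroxiredoxin (207.22 to 164.13 FPKM). No list was made for FAM168B.

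**Figure D4:**
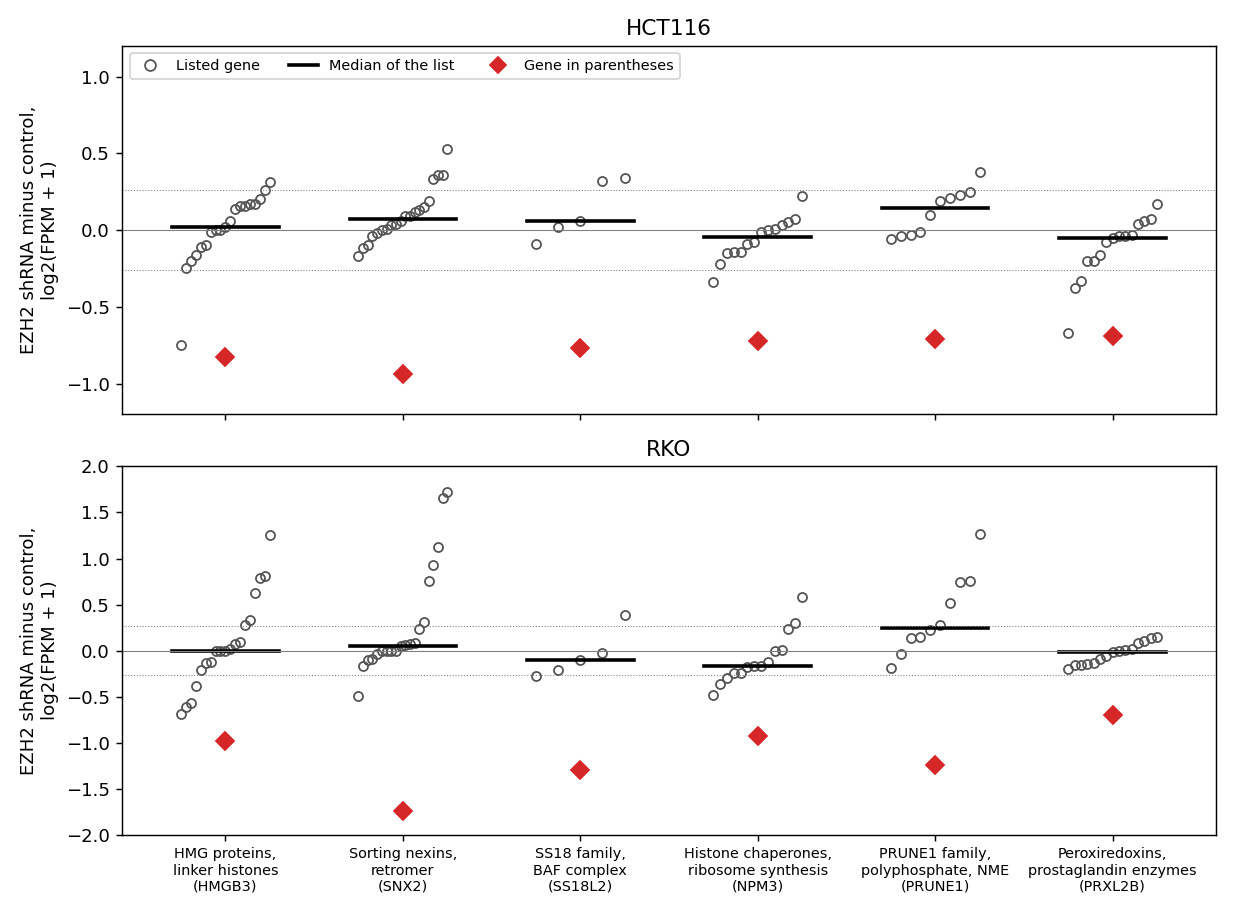
Change after EZH2 shRNA, as a difference of log2(FPKM + 1), of the measured genes of 6 lists (circles) with the list median (bar) and the gene each list was built around (red diamond), in HCT116 above and RKO below, with dotted lines at 1.2-fold. The list medians lie between -0.05 and 0.15 in HCT116 and between -0.17 and 0.25 in RKO. Each red diamond lies below every circle of its list, which the choice of these genes favours, so nothing is read from it.

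The levels of the 7 genes in RKO against HCT116 were not used to choose them, and they were tested. The spread in that test comes from how alike the changes in both lines were, which the choice of genes touches. The p-values are therefore not wholly free of that choice. edgeR's quasi-likelihood test on the expected counts, with the shRNA as a block and 2 libraries per line, called 3 of the 7 at an adjusted p under 0.05. At that threshold 26.9% of measured genes were called higher in RKO and 34.0% lower, 60.9% in all. PRXL2B was higher in RKO, with a log2 difference of 1.24 ± 0.16 (SE, edgeR adjusted p = 0.00383), and its RKO level was above the HCT116 level in both conditions. FAM168B was lower in RKO, with a difference of -0.94 ± 0.17 (edgeR adjusted p = 0.00986), as was HMGB3 with -0.79 ± 0.16 (edgeR adjusted p = 0.0138), and both had the lower RKO level in each condition. In edgeR without the shRNA block the adjusted p was 0.139 for FAM168B and 0.228 for HMGB3. The size of the differences depended on the measure. On log2(FPKM + 1) limma gave 0.95 for PRXL2B, -1.14 for FAM168B and -0.98 for HMGB3.

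For the other 4 the test did not separate the lines. SNX2 had -1.08 (95% interval -2.11 to -0.05, edgeR adjusted p = 0.0671), and SS18L2 had -0.50 ± 0.26 (SE, edgeR adjusted p = 0.172). NPM3 had 0.08 (-0.39 to 0.55, edgeR adjusted p = 0.72) and PRUNE1 0.21 (-0.47 to 0.89, edgeR adjusted p = 0.503). The sign for NPM3 and PRUNE1 turned in limma and is not read. With the shRNA as a block, the spread behind these p-values is how far the line difference itself differed between control and EZH2 shRNA libraries. That spread was moderated over all measured genes. It is not a spread between replicate cultures, since each group had 1 library.

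In the control libraries alone the order of the levels in FPKM was NPM3, HMGB3, FAM168B, PRXL2B, SS18L2, SNX2 and PRUNE1 in HCT116, and NPM3, PRXL2B, HMGB3, FAM168B, SS18L2, PRUNE1 and SNX2 in RKO. SNX2 and PRUNE1 were neighbours in HCT116 at 12.23 and 12.14 FPKM. The count ratio of the RKO control to the HCT116 control was 1.99 for PRXL2B (1.84 to 2.15), 0.968 for NPM3 (0.904 to 1.04) and 0.487 for FAM168B (0.46 to 0.516).

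**Figure D5:**
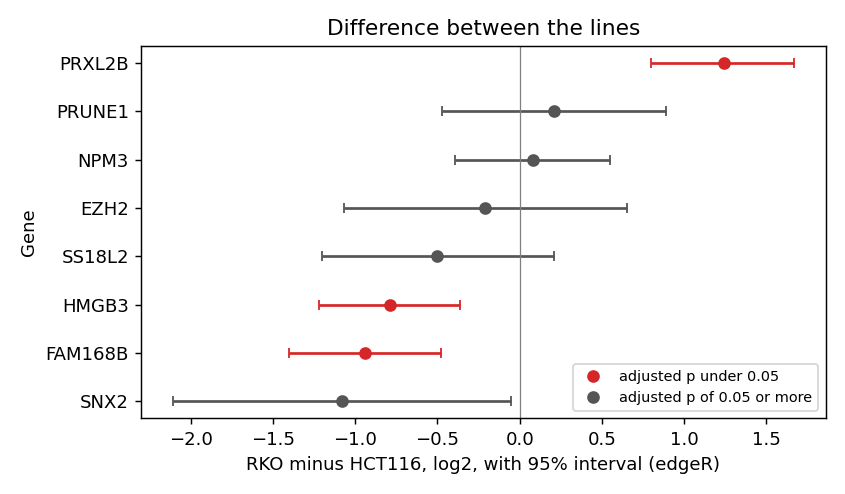
Difference of each gene between the lines, RKO minus HCT116, on a log2 scale from edgeR, with 95% intervals, in red where the adjusted p was under 0.05 and in grey otherwise. PRXL2B (1.24) lies to the right of 0, FAM168B (-0.94) and HMGB3 (-0.79) to the left, and the interval of NPM3 (-0.39 to 0.55) spans 0.

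Transcript features of the 7 were mixed. Transcript GC content, from GENCODE release 29, ranged from 39.9% in SNX2 (10.4th percentile of measured genes) to 65.0% in PRXL2B (95.3rd percentile), around a median of 50.3%. With the GC trend subtracted, the RKO changes were between -0.66 for PRXL2B and -2.15 for SNX2. The effective transcript length that RSEM used, read from the ratio of count to FPKM, shifts when the mix of isoforms shifts. Relative to the HCT116 control it was between 0.998 and 1.008 in every library for HMGB3, SNX2, NPM3, PRUNE1 and PRXL2B. SS18L2 had 1.046 in the HCT116 EZH2 shRNA library, and 0.920 and 0.998 in the RKO control and EZH2 shRNA libraries, all inside the central 90% of measured genes. FAM168B was between 0.992 and 1.034. EZH2 had 1.121 in the HCT116 EZH2 shRNA library, above the 95th percentile of 1.049. In the RKO EZH2 shRNA library EZH2 had 1.111, above the 95th percentile of 1.09.

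Expected counts, given to at most 2 decimals, were whole numbers at that precision in all 4 libraries for HMGB3, NPM3 and PRUNE1, as for 47.6% of measured genes, and carried fractions for SNX2, SS18L2, PRXL2B and FAM168B, which RSEM gives where reads are shared out. GENCODE names 29 pseudogenes of HMGB3, 2 of SS18L2 and 1 of SNX2. PRXL2B overlaps MMEL1 and SS18L2 overlaps SEC22C on the opposite strand, and whether the counting used strand is not given in the sources used here. MMEL1 had between 6.54 and 38.11 expected counts per library, against 551.15 to 2046.42 for PRXL2B.

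The genes most like each of the 7 in pattern were found by the Euclidean distance between log2(FPKM + 1) profiles over the 4 libraries, after each profile's mean was subtracted, among 4113 genes with a mean of at least 5 FPKM. PRXL2B had the closest match, FHOD1 at a distance of 0.07 (11.14 and 6.84 FPKM in HCT116, 21.96 and 13.34 in RKO), followed by TMEM231, a protein of the ciliary base (0.12), and BHLHA15, a transcription factor of secretory cells (0.13). HMGB3 and FAM168B were among each other's nearest genes at a distance of 0.19. The uncertain NME1-NME2 was close to both (0.14 and 0.24), and their remaining neighbours were PDZD8 (0.33) for HMGB3 and JPT1 (0.26) for FAM168B.

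NPM3 and PRUNE1 had the neighbours AGFG1 (0.10 and 0.25) and RAD23B, a DNA repair and proteasome shuttle protein (0.24 and 0.32), in common. The remaining neighbours were the uncertain NPIPA8 (0.09) for NPM3 and NPM3 itself (0.26) for PRUNE1. SS18L2 was nearest to HIST1H4C (0.24), a histone gene with near-identical copies, then RAB11FIP1, a Rab11 effector (0.40), and DDIT4, an inhibitor of mTORC1 (0.42). SNX2 had no close match, its nearest genes being HMGB3 (0.55), SS18L2 (0.57) and FAM168B (0.59). With 4 libraries such distances describe the values and are not a test.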

How the data were processed

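RNA was sequenced from 4 samples, 1 library per group. Per the methods, the authors mapped reads with Bowtie and estimated levels with RSEM. The submitters' processing notes name Bowtie2, BWA, hg19 and GRCh37, and the methods name a mouse build, so the mapping build was not settled, and versions are not given in the sources used here. The authors deposited FPKM values rounded to 2 decimals and expected counts that RSEM estimated. They also deposited log2 ratios of the libraries, their own comparison, which were not used. The rule that chose the 7640 listed genes was not stated. A spreadsheet had turned 13 symbols into dates, which were restored through gene IDs.

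Changes are differences of log2(FPKM + 1), which understates the change of low genes. Depth between libraries came from count to FPKM ratios over 2805 genes with at least 5 FPKM and 200 counts. edgeR 4.0.16 (TMM, quasi-likelihood) was run on counts rounded to whole numbers over 6139 measured genes with Benjamini-Hochberg adjustment at 0.05, and DESeq2 1.42.0 and limma 3.58.1 were alternatives, in R 4.3.3. Exact binomial intervals used scipy 1.17.1. A lowess of span 0.3 gave the GC trend, and 99.1% of measured genes had a GC value. The members, gene lists, motifs and alternatives were chosen with earlier results of these data known. Named were the members, EZH2, the first 15 genes by the smaller change, paralogs, list genes past 1.2-fold alike in both lines and the 3 nearest genes in pattern. List genes named beyond that were named after their values were seen.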

Additional observations from a re-analysis of the deposited data

How the results depend on the processing

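All 14 member changes, 7 genes in 2 lines, were recomputed under 5 alternatives, 70 values in all. Every one was over 1.2-fold lower, from -0.63 to -2.37, and 12 moved by more than their counting error, all in RKO. Since the genes were chosen as strongly reduced, the choice favours their staying past 1.2-fold, and nothing is read from it. With a pseudocount of 0.1 SNX2 was at -2.21, and with the GC trend subtracted at -2.15. Median-of-ratios scaling gave -1.13 for HMGB3, -1.09 for NPM3, -0.85 for PRXL2B and -1.10 for FAM168B. TMM scaling gave -1.16 for HMGB3, -2.37 for SNX2, -1.07 for NPM3, -1.51 for PRUNE1, -0.85 for PRXL2B and -1.12 for FAM168B. The number of measured genes over 1.2-fold lower was 593 in HCT116, 671 in RKO and 163 in both. At 1.5-fold these were 68, 101 and 15, and under median-of-ratios scaling the RKO count was 1537 and the count in both lines 288. Genes called in RKO split into 671 lower and 1394 higher as deposited and 1537 lower and 1062 higher under that scaling. The cause of these shifts was not tested.

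Between the lines, HMGB3 (-0.74, adjusted p = 0.228) and FAM168B (-0.88, adjusted p = 0.139) lost their calls in edgeR without the shRNA block, and SNX2 was called by limma (-1.05, adjusted p = 0.0296). Over the alternatives with a test the adjusted p ranged from 0.000937 to 0.228 for HMGB3, from 0.000186 to 0.139 for FAM168B and from 0.0296 to 0.461 for SNX2. NPM3 turned to -0.15 in limma, -0.05 in the control libraries alone and -0.26 in the EZH2 shRNA libraries alone. PRUNE1 turned to -0.02 in limma and -0.28 in the EZH2 shRNA libraries alone. The number of genes called was between 3195 and 4809. The labels give no replicate numbers, so the shRNA was the block in use.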

Other observations

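The readthrough gene NME1-NME2, which joins NME1 and NME2, was at 42.69 and 22.18 FPKM in HCT116 and 19.99 and 11.06 FPKM in RKO, while NME1 was at 399.39 and 391.81 FPKM in HCT116 and 335.38 and 325.79 FPKM in RKO. Reads common to the genes are shared out by RSEM, so the value of the readthrough gene is uncertain. NME2 was not analysed here.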
